A study of Mus musculus with 42 samples.

Results

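The comparison described here set the blood of C57BL/6 mice that had received transcranial direct current stimulation (tDCS) through an electrode over the prefrontal cortex against the blood of C57BL/6 mice stimulated over the hippocampus. Its members are 7 of the 42 mice of the series, chosen by strain, age, stimulation and electrode site as the labels give them. The prefrontal group held 4 mice (DT, DS, DR and DU), stimulated in 6 sessions of 15 min, and the hippocampal group 3 mice (U, V and X), stimulated in 3 sessions of 20 min. All 7 mice were 6 months old (6 mo.) and wild type (WT). Each carried an electrode holder fixed on the skull under anaesthesia, with the scalp and the tissue beneath it removed. The sex of the C57BL/6 mice was not given in the sources used here, and reads of the Y-linked gene *Ddx3y* were found in all 7 mice.

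The series as a whole asked how tDCS changes the blood transcriptome of 3xTg-AD mice, which carry human transgenes linked to Alzheimer's disease, and of their C57BL/6 controls. Whole blood was taken after the last session, alpha and beta globin transcripts were depleted, and a 3′ mRNA kit was used for sequencing. In C57BL/6 mice, electrode site always went together with the number and the length of the sessions. In the paper, prefrontal sessions were spread over weeks and hippocampal ones fell on consecutive days, both starting some days after surgery. The planned time from surgery to blood collection thus also differed between sites. The prefrontal electrode was not used in C57BL/6 sham mice. Site, session schedule, time since surgery and any unlabelled difference in handling or sequencing run therefore cannot be told apart in these 7 mice.

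Weak direct current passed through the skull shifts the membrane potential of neurons under the electrode. Whole blood RNA comes mostly from reticulocytes, platelets and white blood cells, while keratins and cornified envelope proteins are made by the epithelia of skin and mucosa, and sebaceous glands make enzymes of wax and fatty acid synthesis. Mitochondria carry a small genome of their own, transcribed as long precursors in which tRNA genes separate the mRNAs and rRNAs.

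Totals ran from 20582323 to 30370933 reads in the prefrontal mice and from 23824919 to 24758671 in the hippocampal mice, and the ranges overlapped (exact permutation test, two-sided p = 0.629, 0.733 after Benjamini-Hochberg adjustment over 7 such tests). The labels name separate mice but no litter, cage or sequencing run, and all p-values measure the spread between these mice only. The smallest two-sided p that 4 against 3 mice allow is 0.0571, and these single-value tests cannot pass 0.05. Levels are given in counts per 1000000 reads (CPM) after TMM normalisation, and 3 reads correspond to at most 0.125 CPM in a prefrontal mouse. Defining transcripts of blood cells were present in all 7 mice, among them *Slc4a1*, the red cell anion exchanger, with 602 to 2544 CPM.

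The prefrontal mice were not alike. *Mmrn1*, which encodes the platelet protein multimerin, was at 28.5, 0, 24.3 and 0.0736 CPM in mice DT, DS, DR and DU and at 63.7, 84.9 and 62.7 CPM in mice U, V and X. Mice DS and DU thus had at most 2 reads on this gene, while DT and DR had 24.3 CPM or more. *Mmrn1* did not pass the test between sites (log2 fold change -2.47, SE 1.16, edgeR adjusted p = 0.322). The sources used here give the same strain name for all C57BL/6 mice and no substrain, and whether DS and DU differed from the others in origin was not tested. The part of this split in the site differences was not tested either, and counts without DS and DU are given beside the main count below.

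At the prefrontal site, many keratinocyte transcripts were at or near zero in the blood, and reads on most mitochondrial tRNA genes were lower. A small set of genes that included alpha globin and the T and NK cell chemokine gene *Ccl5* was higher. Among the 15591 genes that had any read in these 7 mice, 449 (2.88%) passed an adjusted p of 0.05 in the quasi-likelihood test of edgeR and were called differentially expressed genes (DEGs). Lower levels at the prefrontal site were found for 428 of them (2.75% of the genes tested) and higher levels for 21 (0.135%). The median log2 fold change over all genes tested was -0.04. All 449 DEGs had a fitted log2 fold change beyond 1 in size, and 394 of the lower and 14 of the higher DEGs were protein coding. The ranges of the sites did not overlap for 396 of the 428 lower and for all 21 higher DEGs. Over all genes tested, which include the DEGs, the ranges did not overlap with lower prefrontal levels for 1146 genes (7.35%) and with higher ones for 1031 (6.61%). Since the DEGs were called on the same values, their counts are a description. Without mice DS and DU, 307 genes were called, 288 of them among the 449.

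**Figure D1:**
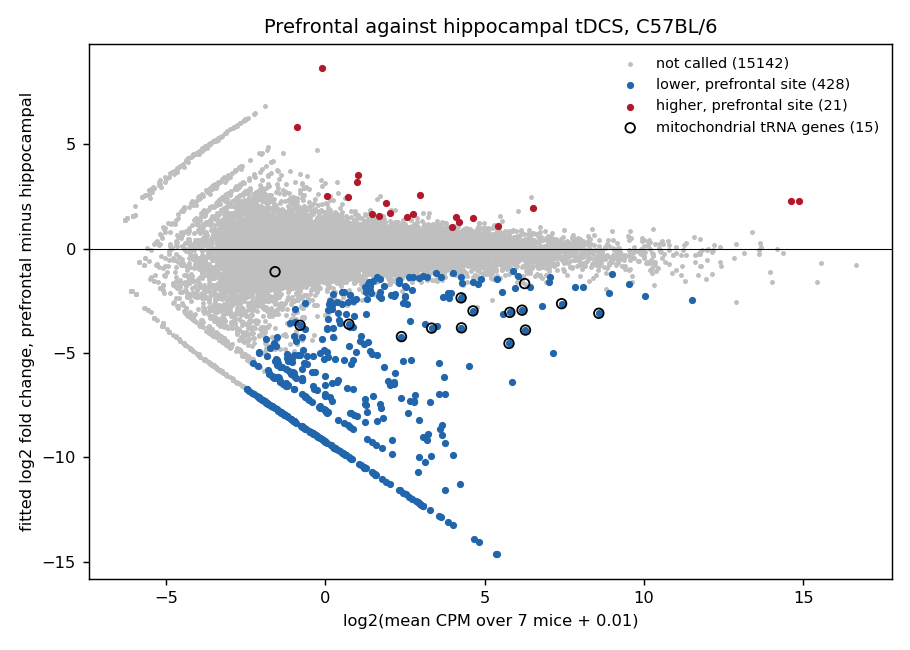
Fitted log2 fold change (prefrontal minus hippocampal, vertical axis) against the log2 of the mean CPM over the 7 mice plus 0.01 (horizontal axis) for 15591 genes, with DEGs in colour and 15 mitochondrial tRNA genes circled. The 428 lower DEGs reach far below zero, with a diagonal edge formed by genes without a read in the prefrontal mice, while the 21 higher DEGs lie mostly between 1 and 3.

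Of the 428 lower DEGs, 131 had no read in any of the 4 prefrontal mice, and 101 had 1 to 3 reads in total. For such genes the fitted log2 fold change depends on the prior count and is not a bound. A lower bound of the fold was therefore taken against 3 reads in the shallowest prefrontal library. Mouse X had the highest level of the hippocampal mice for 370 of the 428 genes, V for 43 and U for 15. Without mouse X, 273 genes were called, 242 of them lower, and 228 of the 449 DEGs were kept.

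Epidermal transcripts were low in all prefrontal mice. All 16 genes of a keratinocyte marker list were in the table, 13 were called lower and none higher, with a median log2 fold change of -7.38 (-7.21 with genes without a prefrontal read set to their bound). Summed over the list, the prefrontal mice DT, DS, DR and DU had 21.3, 30.7, 16.8 and 12.8 CPM, and the hippocampal mice U, V and X had 130.1, 169 and 643 CPM. Of the prefrontal reads, most were of *Sfn*, a 14-3-3 protein gene with 2730 reads over the 4 mice (log2 fold change -1.10, SE 0.36, edgeR adjusted p = 0.145), and the other 15 genes had at most 17 reads each. Mouse X stood above U and V, and the lowest of these 3 was still above every prefrontal mouse. The 6 C57BL/6 hippocampal sham mice of 6 months had 59.6 to 405.5 CPM. Those of 3 months, A2, I and AS, had 13.3, 16.2 and 111 CPM. Hippocampal 3xTg-AD mice of 6 months had 19.8 (AL) to 1440 CPM (AN) with tDCS and 11.7 (S) to 475 CPM (O) in sham. Sums as low as in the prefrontal mice thus also occurred at the hippocampal site.

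Loricrin (*Lor*), the main protein of the cornified envelope, was at 0, 0, 0.0241 and 0 CPM in the prefrontal mice and at 13.9, 20.3 and 60.2 CPM in the hippocampal mice. A single read was counted in the 4 prefrontal mice, and the ratio of summed reads was 4672-fold, with an exact 95% interval from counting error of 838 to 184615 (edgeR adjusted p = 7.72e-06). The structural keratins gave the same picture, with all 4 prefrontal mice at or near zero. *Krt1*, the keratin of the layers above the basal epidermis, was at 0.0204, 0.125, 0.0241 and 0.110 CPM against 9.45, 13.2 and 65.9 CPM (log2 fold change -8.95, SE 0.81, edgeR adjusted p = 3.16e-05). The basal keratin gene *Krt14* was at 0, 0.0418, 0.0723 and 0.0368 CPM against 4.48, 10.5 and 43.4 CPM (log2 fold change -9.01, SE 0.88, edgeR adjusted p = 4.51e-05). *Krt15*, a further basal keratin gene, had no read in the prefrontal mice and 33.9, 45.6 and 207 CPM in the hippocampal mice, at least 762-fold lower (edgeR adjusted p = 3.16e-05). In none of these 4 genes did the sites overlap, although mouse X was several times above mouse U in each. All 4 remained called when any 1 of the 7 mice was left out.

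Families taken by symbol after the values were seen held further members. Of 25 keratin genes, 16 were called lower and none higher, with a median log2 fold change of -7.86 (-5.98 with bounds). Of 21 late cornified envelope (Lce) genes, which lie together in the epidermal differentiation complex, 20 were called lower, 20 of the 21 having no read in any prefrontal mouse. The Lce genes summed to 0, 0, 0.0482 and 0 CPM in the prefrontal and 31.8, 36.4 and 138 CPM in the hippocampal mice. Of 8 kallikrein-related peptidase genes tested, 6 were called lower, among them *Klk7*, a protease of the horny layer, at 0, 0, 0.0241 and 0 CPM against 4.21, 11.3 and 37.2 CPM (edgeR adjusted p = 3.16e-05). The calmodulin-like epidermal gene *Calm4* was without a read in the prefrontal mice and at 33.6, 59.5 and 201 CPM in the hippocampal mice, at least 782-fold lower (edgeR adjusted p = 3.16e-05). Also without a read in the prefrontal mice were *Calml3*, a further calmodulin-like gene (at least 523-fold lower), the protease inhibitor gene *Csta1* (at least 476-fold) and *Krt13* (at least 297-fold). *Krt13* encodes a keratin of the lining of mouth and gullet. It was at 19.3, 9.92 and 82.3 CPM in the hippocampal mice. *Calml3* was at 31.9, 18.3 and 147 CPM and *Csta1* at 25.9, 16.2 and 137 CPM in mice U, V and X, so that mouse X raised the bounds. Without X, the bounds were at least 371-fold for *Calm4*, 200.3-fold for *Calml3*, 168-fold for *Csta1*, 117-fold for *Krt13* and 317-fold for *Krt15*, and the ratio for *Lor* was 2362-fold (exact 95% interval from counting error 423 to 93394). Of 6 small proline-rich (Sprr) genes, which encode further envelope precursors, 4 were called lower, as were 2 of 6 desmosomal cadherin, 3 of 9 claudin, 3 of 5 Tmprss11 protease and 4 of 13 clade B serpin genes. No member of these 5 families was called higher.

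Further lower DEGs, named for their small p or chosen after their values were seen, included genes known from mucosal and airway epithelia. No list of such genes was tested. *Gp2*, which encodes a glycoprotein of secretory and antigen-sampling epithelial cells, had no read in the prefrontal mice and was at 9.59, 5.70 and 19.9 CPM in the hippocampal mice, at least 93.6-fold lower, or 61.0-fold without X (edgeR adjusted p = 3.16e-05). *Wfdc2*, a secreted product of airway epithelium, was at 0.0409, 0.292, 0.0964 and 0 CPM against 21.6, 6.67 and 19.4 CPM (log2 fold change -7.37, SE 0.65, edgeR adjusted p = 3.16e-05). The epithelial aldehyde dehydrogenase gene *Aldh3a1* was at 0.102, 0, 0 and 0 CPM against 18.9, 7.08 and 37.6 CPM (log2 fold change -9.18, SE 0.78, edgeR adjusted p = 3.16e-05), all of its prefrontal reads being from mouse DT. In these 3 genes mouse V was the lowest of the hippocampal mice and still lay above every prefrontal mouse. Of 8 mucin genes, a family also taken by symbol, 4 were called lower and the median log2 fold change was -4.68. The gel-forming mucin *Muc5ac* was at 0.0204, 0, 0 and 0.0368 CPM against 4.17, 1.69 and 7.88 CPM (edgeR adjusted p = 4.32e-05). The surface mucin *Muc4* was at 0.0409, 0.125, 0.0241 and 0.0736 CPM against 7.99, 3.65 and 30.6 CPM (log2 fold change -7.89, SE 0.77, edgeR adjusted p = 4.51e-05). Also among the 12 lower DEGs with the smallest p were *Slc5a1*, the sodium-glucose cotransporter of gut and kidney (log2 fold change -7.66), *Elf3*, an epithelial transcription factor, *Mal*, a membrane protein of epithelial apical transport, *Upk3bl*, a uroplakin-like gene, and *Plekhs1*. The club cell gene *Cyp2f2*, chosen after its values were seen, was at 0 in the prefrontal mice and at 5.98, 5.07 and 26.7 CPM in the hippocampal mice.

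Some genes of sebaceous lipid synthesis and of sterol synthesis, which formed no list tested here, were also among the lower DEGs. The sebaceous fatty acid desaturase gene *Scd3* was at 0, 0, 0.0241 and 0.626 CPM in the prefrontal mice and at 0.869, 14.9 and 51.0 CPM in the hippocampal mice (log2 fold change -7.35, SE 1.24, edgeR adjusted p = 0.00315), and mouse U came close to the prefrontal mice. The wax ester synthase gene *Awat2* was at 0.0409, 0, 0 and 0.552 CPM against 0.139, 10.1 and 38.6 CPM (log2 fold change -7.00, SE 1.33, edgeR adjusted p = 0.00792), and mouse U lay within the prefrontal range. Mouse U thus differed from V and X in both genes. *Scd1*, which is also expressed outside the sebaceous gland, was at 24.2, 30.6, 36.4 and 27.4 CPM against 38.4, 62.2 and 215 CPM (log2 fold change -1.90, SE 0.46, edgeR adjusted p = 0.0388). Chosen after their values were seen, 4 genes of cholesterol synthesis were called lower, namely *Fdps* (log2 fold change -3.22), *Msmo1* (-2.34), *Cyp51* (-1.30) and *Hsd17b7* (-1.81). These are more widely expressed genes, and their prefrontal levels were not at zero. The collagen genes *Col1a1*, *Col1a2*, *Col3a1* and *Col5a2* were called lower among 6 fibrillar collagen genes tested. *Col1a1* was at 0, 0, 0 and 0.184 CPM against 6.12, 4.36 and 2.18 CPM (log2 fold change -6.72, SE 0.87, edgeR adjusted p = 3.38e-04), all prefrontal reads being from mouse DU. *Col1a1*, *Scd3* and *Awat2* remained called with any 1 mouse left out. *Scd1* lost its call without V, X or any 1 prefrontal mouse (edgeR adjusted p 0.0537 to 0.264), *Cyp51* without V, X, DT, DR or DU (0.0946 to 0.203), *Hsd17b7* without X, DT or DR (0.0632 to 0.205), and *Col3a1* and *Col5a2* without X (0.0728 and 0.238).

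**Figure D2:**
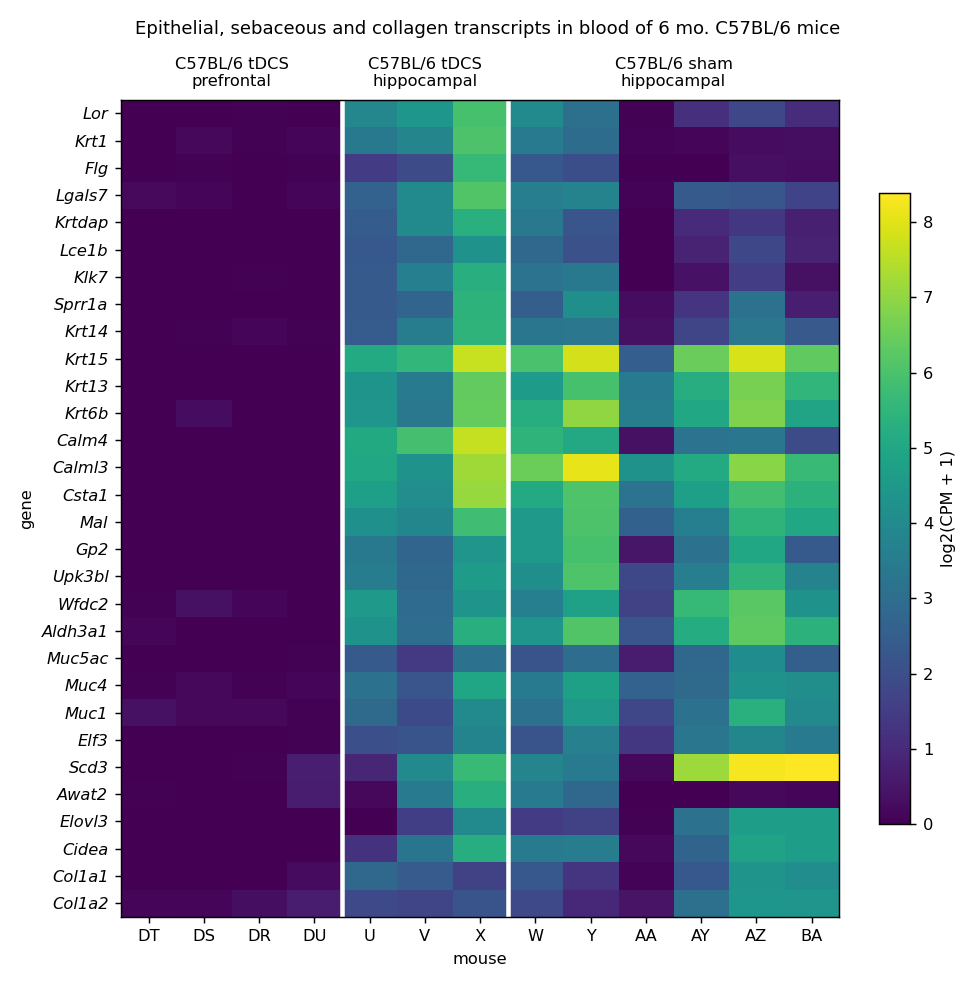
Levels of 30 epithelial, sebaceous and collagen genes (rows) as log2(CPM + 1) in each of the 4 prefrontal tDCS, 3 hippocampal tDCS and 6 hippocampal sham C57BL/6 mice of 6 months (columns). The 4 prefrontal mice are dark (low) in all rows, mouse X is brighter than U and V in most, and among the sham mice AA is the darkest in most rows.

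Mice of other groups show how common these transcripts were in the blood. Of the 131 DEGs without a read in the prefrontal C57BL/6 tDCS mice, which were chosen for that absence, 124, 130 and 131 had a read in mice U, V and X. In the 6 C57BL/6 hippocampal sham mice of the same age, which were not used in the choice, 74 to 129 of them had a read (median 116). The 3 hippocampal sham C57BL/6 mice of 3 months had 41 to 77. Among 3xTg-AD mice of 6 months, 43 to 125 of the 131 genes had a read in the 8 hippocampal tDCS mice and 5 to 56 in the 6 prefrontal tDCS mice. The 5 hippocampal and 4 prefrontal sham 3xTg-AD mice had 30 to 128 and 29 to 86. The 3 sham 3xTg-AD mice of 3 months had 86 to 121. The 6 prefrontal 3xTg-AD tDCS mice thus had fewer of these genes than any C57BL/6 sham mouse of 6 months, while their range overlapped that of the hippocampal 3xTg-AD tDCS mice. Counts of genes with a read depend on depth. In 3xTg-AD tDCS mice, 3 reads corresponded to up to 0.359 CPM at the prefrontal site (tdcs7) and 0.162 CPM at the hippocampal site (AN). Levels in the C57BL/6 sham mice varied widely, from 4.65 to 237 CPM for *Krt15* and from 0.0253 to 14.6 CPM for *Lor*. In 209 of the 428 lower DEGs the lowest sham mouse still exceeded the highest prefrontal mouse, as it did in 427 of all genes tested (2.74%). The tissue that these transcripts came from was not tested, and in whole blood fewer cells of a type and less RNA per cell cannot be told apart.

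Reads on most mitochondrial tRNA genes in the table were lower at the prefrontal site. The libraries were made with a 3′ mRNA kit, and whether these reads came from single tRNAs or from longer precursors was not tested. Of 15 mitochondrial tRNA genes in the table, 13 were called lower and none higher, with a median log2 fold change of -3.10. Each tRNA carries its amino acid to the ribosomes of the organelle, and the 3 genes shown here lie side by side between the mRNA genes *mt-Nd1* and *mt-Nd2*. Their sequences (GENCODE vM21, GRCm38) are printed to show how short and how tightly packed they are, with bases that also belong to a neighbouring gene in capitals. *mt-Ti* lies at chrM:3706-3774 on the plus strand, *mt-Tq* at chrM:3772-3842 on the minus strand and *mt-Tm* at chrM:3845-3913 on the plus strand.
mt-Ti: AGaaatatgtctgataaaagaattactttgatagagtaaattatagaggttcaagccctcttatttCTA
mt-Tq: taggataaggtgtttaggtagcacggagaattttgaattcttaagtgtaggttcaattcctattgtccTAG
mt-Tm: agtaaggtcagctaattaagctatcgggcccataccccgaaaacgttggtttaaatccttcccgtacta
The 3′ ends of *mt-Ti* and *mt-Tq* overlap by 3 bases on opposite strands, and *mt-Ti* shares 2 further bases with *mt-Nd1*. The strand setting of the counting is not given in the sources used here, so reads of *mt-Ti* and *mt-Tq* may not be separable.

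The isoleucine tRNA gene *mt-Ti* was at 3.92, 4.55, 2.02 and 1.88 CPM in the prefrontal mice and at 25.5, 45.7 and 51.6 CPM in the hippocampal mice (log2 fold change -3.80, SE 0.39, edgeR adjusted p = 5.43e-05). The glutamine tRNA gene *mt-Tq* was at 5.90, 8.4, 7.13 and 4.64 CPM against 34.7, 53.8 and 59.1 CPM (log2 fold change -2.99, SE 0.31, edgeR adjusted p = 6.12e-05). The methionine tRNA gene *mt-Tm*, the most abundant of the 15, was at 92.5, 121, 57.6 and 107 CPM against 329, 1131 and 842 CPM (log2 fold change -3.10, SE 0.42, edgeR adjusted p = 4.99e-04). In all 3 genes the highest prefrontal mouse was below the lowest hippocampal mouse, and all 3 remained called with any 1 mouse left out. The 2 tRNA genes that were not called, *mt-Tn* and *mt-Te*, had log2 fold changes of -1.11 (SE 1.0) and -1.68 (SE 0.45). Summed over the 15 genes, levels were 244, 362, 199 and 236 CPM in the prefrontal and 866, 2488 and 2395 CPM in the hippocampal tDCS mice, and from 403 to 1715 CPM in the 6 C57BL/6 sham mice. The sham range lay above the prefrontal mice and overlapped the hippocampal tDCS mice. In the sham mice *mt-Ti* had a lowest, median and highest level of 6.58, 24.4 and 36.4 CPM.

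All 7 mitochondrial mRNAs in the table and both rRNAs had negative log2 fold changes, with a median of -1.45 for the mRNAs. Summed levels of the 7 mRNAs were 6533, 7150.3, 5393 and 3843 CPM and 13544, 21459 and 15625 CPM, with 11388 to 18986 CPM in the sham mice. All 4 prefrontal mice were therefore below every hippocampal C57BL/6 mouse of 6 months, tDCS or sham. Hippocampal 3xTg-AD mice reached as low, with 3367 CPM in the sham mouse P and 4258 CPM in the tDCS mouse AL. Of the 9 genes, only *mt-Nd2* and *mt-Nd4*, which encode subunits of complex I, were called. *mt-Nd4* was at 1298, 1752, 679 and 391 CPM against 4313, 6595 and 5405 CPM (log2 fold change -2.47, SE 0.47, edgeR adjusted p = 0.00760). Mitochondrial transcripts together took 6.06, 4.60, 6.57 and 3.93% of the reads in mice DT, DS, DR and DU and 9.06, 14.6 and 14.2% in mice U, V and X. The groups did not overlap (exact permutation test, two-sided p = 0.0571, the smallest the design allows, 0.133 after adjustment over 7 tests). The share of reads on tRNA genes alone was 0.0345% ± 0.00767 (SD, n = 4) against 0.213% ± 0.105 (SD, n = 3), with the same exact permutation p. Of 23 nuclear genes of oxidative phosphorylation, 1 was called, *Ndufa4* (log2 fold change -1.45, SE 0.35, edgeR adjusted p = 0.0355), and their median was -0.15. *Ucp2*, which encodes a carrier of the inner mitochondrial membrane and was chosen after its values were seen, was at 334, 715, 355 and 221 CPM against 2404, 1101 and 2133 CPM (log2 fold change -2.26, SE 0.41, edgeR adjusted p = 0.00600). Other abundant lower DEGs, also chosen after their values were seen, were the tetraspanin gene *Cd9*, expressed in platelets, with 548, 554, 284 and 186 CPM against 1520.0, 1437 and 645 CPM (log2 fold change -1.68, SE 0.42, edgeR adjusted p = 0.0483), and *Rny1* and *Rny3*, which encode small RNAs bound by the Ro protein (log2 fold changes -1.83 and -1.84). Of these 4 genes, *Rny1* and *Rny3* overlapped between sites and *Ucp2* and *Cd9* did not. With 1 mouse left out *Ucp2* remained called, while *Ndufa4* and *Cd9* lost the call without each of 6 mice (edgeR adjusted p 0.0624 to 0.218 and 0.0524 to 0.187), *Rny1* without 5 (up to 0.293) and *Rny3* without 4 (up to 0.207), mouse V giving the highest p in all 4.

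**Figure D3:**
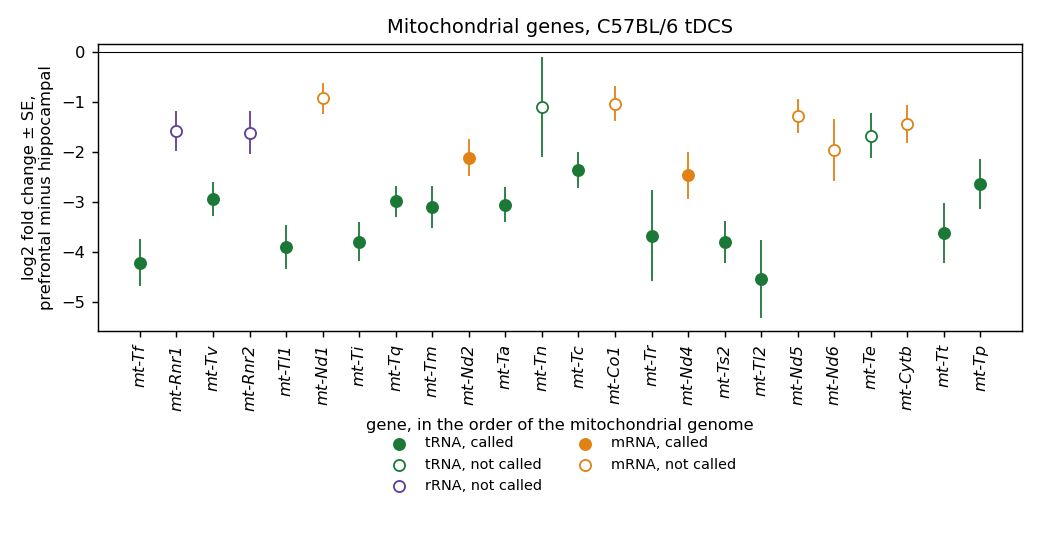
Log2 fold change with SE (prefrontal minus hippocampal, 4 against 3 mice) for 24 mitochondrial genes in genome order, with filled symbols for called genes. All lie below zero, and most tRNA genes lie lower than the rRNA and mRNA genes around them.

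The adult alpha globin genes were the most abundant of the higher DEGs. *Hba-a1* and *Hba-a2*, the adult alpha globin genes on chromosome 11, were higher at the prefrontal site together with the alpha globin pseudogenes *Hba-ps3* and *Hba-ps4*. *Hba-a1* was at 32664, 31913, 58589 and 59522 CPM in the prefrontal mice and at 11716, 4369 and 11010.0 CPM in the hippocampal mice (log2 fold change 2.29, SE 0.50, edgeR adjusted p = 0.0204). The transcripts of *Hba-a1* and *Hba-a2* are 99.8% identical over 538 aligned bases, so both genes may share reads and count as 1 observation. The pseudogenes were not aligned, and whether they share these reads as well was not tested. *Hbb-bs*, the main adult beta globin gene, did not pass the test, with 16244, 166194, 27987 and 114052 CPM against 85474, 185992 and 121716 CPM (log2 fold change -0.77, SE 0.69, edgeR adjusted p = 0.654). Both adult alpha globin genes took 9.65, 6.62, 14.4 and 13.8% of the reads of the prefrontal mice and 2.36, 0.756 and 2.69% of those of the hippocampal mice (exact permutation test, two-sided p = 0.0571, 0.133 after adjustment over 7 tests). For the adult beta globin genes the shares were 3.71, 28.6, 5.12 and 21.2% and 15.3, 24.2 and 22.9%, and these overlapped. The 2 prefrontal mice with little beta globin, DT and DR, were those in which *Mmrn1* was above 1 CPM. The libraries had been depleted of both globins, and a difference in depletion was not tested. In the C57BL/6 sham mice *Hba-a1* ranged from 6451 to 132949 CPM, a range that holds all 4 prefrontal values. These sham mice, all with the hippocampal electrode, were split. Both adult alpha globin genes took 1.12, 2.72 and 2.45% of the reads in W, Y and AA, much as in the hippocampal tDCS mice. In AY, AZ and BA they took 21.1, 13.6 and 20.1%, within or above the prefrontal range. The cause of this split was not tested. The call of *Hba-a1* was lost without V, DR or DU (edgeR adjusted p = 0.0631, 0.0507 and 0.0516), that of *Hba-a2* without U, V or DU (0.0517 to 0.0704) and that of *Hba-ps4* without each mouse but X and DS (0.0519 to 0.172), while *Hba-ps3* remained called. None of the 19 erythroid markers in the table other than globins was called, and their median log2 fold change was -0.26.

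A few immune genes were higher at the prefrontal site. *Ccl5*, a chemokine gene of cytotoxic T and NK cells, was at 166, 62.5, 145 and 166 CPM against 45.4, 25.6 and 31.2 CPM (log2 fold change 1.93, SE 0.37, edgeR adjusted p = 0.00819), and the C57BL/6 sham mice ended at 67.2 CPM. *Bcl11b*, a transcription factor gene of the T cell lineage, was at 39.2, 19.5, 30.7 and 48.8 CPM against 9.35, 12.6 and 14 CPM (log2 fold change 1.46, SE 0.34, edgeR adjusted p = 0.0292). It was the only one of 17 T cell markers that was called. A further 7 T cell markers had positive log2 fold changes at an unadjusted p under 0.05, among them *Cd3e* (log2 fold change 1.52, SE 0.40, edgeR adjusted p = 0.0597). In the other direction, *Cd3g*, which encodes a further chain of the CD3 complex and was named after its values were seen, had a log2 fold change of -0.82 (SE 0.35, unadjusted p = 0.0350, edgeR adjusted p = 0.278). The median of the list was 0.63. Summed levels of the 17 markers were 358, 268, 279 and 412 CPM in the prefrontal mice against 249, 221 and 169 CPM, and reached 256 CPM in the sham mice, so that all 4 prefrontal mice were above both. *Ccl5* was the only one of 14 NK cell markers that was called, with a list median of 0.44. Summed over these 14 markers, the prefrontal mice DT, DS, DR and DU had 473, 170, 299 and 330 CPM against 177, 138 and 138 CPM. Mouse DS thus lay below U, and within the sham range of 146 to 196 CPM. Log2 fold changes were above 0 for 9 of the 14 and below 0 for 5. At an unadjusted p under 0.05 in edgeR, 4 were higher and 1 was lower. The lower one was *Klrb1c* (log2 fold change -0.8, SE 0.34, edgeR unadjusted p = 0.0334, adjusted p = 0.273). *Fpr2*, a formyl peptide receptor gene of neutrophils, was at 30.6, 19.8, 18.3 and 30.4 CPM against 9.21, 8.86 and 11.3 CPM (log2 fold change 1.27, SE 0.29, edgeR adjusted p = 0.0288), while the other 15 neutrophil markers were not called and the list median was 0.31. *Ifi208*, an interferon-inducible gene of the Pyhin family, was at 9.09, 7.64, 9.97 and 12.1 CPM against 3.30, 3.96 and 1.5 CPM (log2 fold change 1.67, SE 0.36, edgeR adjusted p = 0.0190). None of 16 interferon-stimulated genes on the list was called, and its median was -0.54. The remaining higher genes within the naming rule were *Pskh1* (log2 fold change 1.5), *Mirt2* (1.70), an antisense gene whose reads may not be separable from those of its partner strand, *Stat5a* (2.53), *H2-Q6* (1.56), a class I gene with near-identical paralogs, and *Sfxn5* (1.64). Leaving out 1 mouse ended all of these calls but that of *Pskh1*. *Ccl5* lost its call without V (edgeR adjusted p = 0.0621), *Ifi208* without X or DU (0.0624 and 0.0539), and *Bcl11b* and *Fpr2* each without 5 of the 7 mice (0.0532 to 0.102 and 0.0514 to 0.118). *Stat5a* and *H2-Q6* lost theirs without 5 mice each and *Sfxn5* without 6 (0.0528 to 0.112, 0.0599 to 0.130 and 0.0532 to 0.142), and *Mirt2* lost its call without DT (0.0533). *Psd4*, *Sf1* and 6 genes with provisional Gm or Rik symbols made up the rest of the 21. Leaving out any 1 of the 7 mice ended the calls of *Psd4* and *Sf1* (edgeR adjusted p 0.0546 to 0.136 and 0.0695 to 0.154). In 6 of the 21, *Ccl5* not among them, the highest sham mouse was below the lowest prefrontal mouse, which held for 240 of all genes tested (1.54%).

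**Figure D4:**
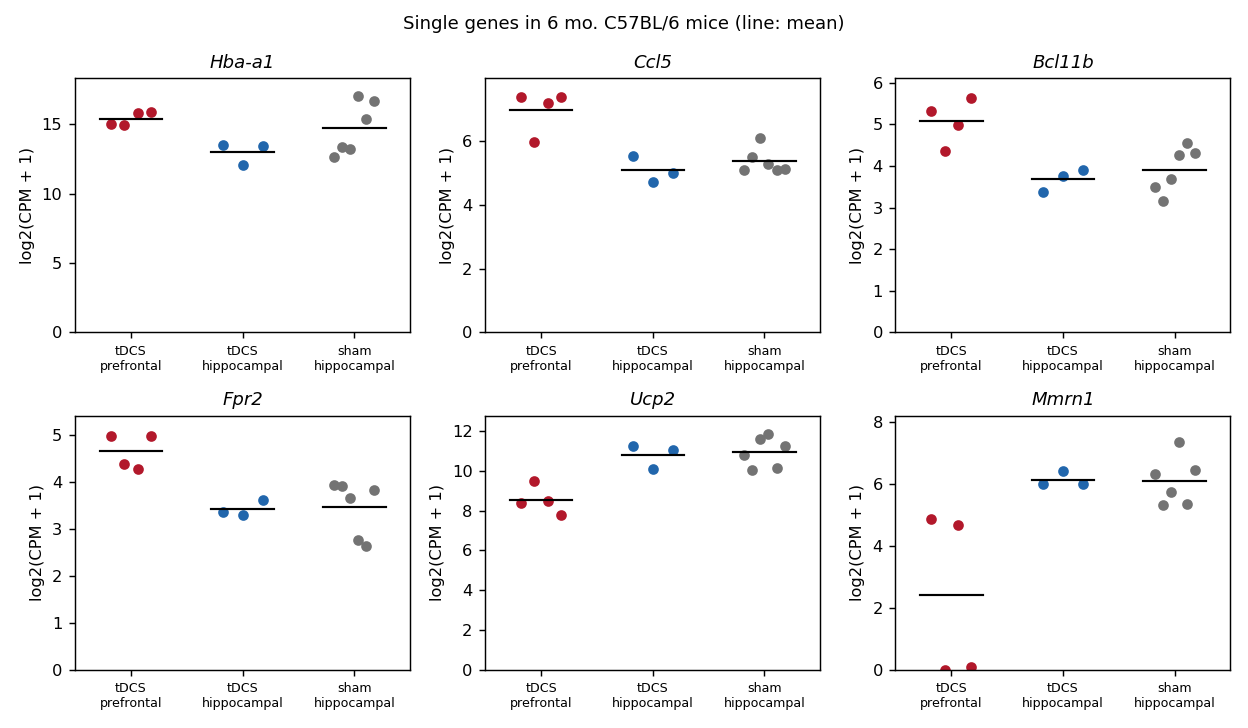
Levels of *Hba-a1*, *Ccl5*, *Bcl11b*, *Fpr2*, *Ucp2* and *Mmrn1* as log2(CPM + 1) in each 6 mo. C57BL/6 mouse (points) with the mean of each group (line) for 4 prefrontal tDCS, 3 hippocampal tDCS and 6 hippocampal sham mice. *Ccl5* and *Fpr2* in the prefrontal mice lie apart from the hippocampal tDCS mice, the sham range of *Hba-a1* spans both, the prefrontal mice are the lowest for *Ucp2*, and *Mmrn1* splits the prefrontal mice into 2 at or near zero and 2 under the hippocampal tDCS mice.

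The remaining lists of blood cell types and response programmes held no DEG or 1. Among 14 circadian clock genes, *Nr1d1*, which encodes the repressor REV-ERB alpha, was called lower, with 0.756, 0.376, 0.193 and 0.442 CPM against 1.11, 1.38 and 5.63 CPM (log2 fold change -2.67, SE 0.63, edgeR adjusted p = 0.0323). Among 12 eosinophil and basophil markers, *Fcer1a*, the IgE receptor gene of basophils, was called lower, with 0.368, 0.501, 0.120 and 0.552 CPM against 1.35, 2.62 and 2.21 CPM (log2 fold change -2.51, SE 0.56, edgeR adjusted p = 0.0235). The metallothionein gene *Mt2*, on the glucocorticoid list, was at 0.347, 0.0835, 0.265 and 0.0736 CPM against 2.15, 2.31 and 16.2 CPM (log2 fold change -5.09, SE 0.75, edgeR adjusted p = 9.54e-04). In *Nr1d1*, *Fcer1a* and *Mt2* the sites did not overlap, with levels of a few CPM or less in all but mouse X. *Hspb1*, the only gene called of 13 heat shock genes, encodes a small heat shock protein also made in epidermis, and was at 0.0204, 0.0418, 0 and 0 CPM against 0.0695, 0.534 and 3.48 CPM (edgeR adjusted p = 0.0128). *Rpl17* was the only one called of 77 genes of cytosolic ribosomal proteins (log2 fold change -1.23, edgeR adjusted p = 0.0485), whose median was -0.31. With 1 mouse left out *Mt2* remained called, whereas *Nr1d1* lost its call without X, DS, DR or DU (edgeR adjusted p up to 0.341), *Fcer1a* without V, X, DT or DR (up to 0.154), *Hspb1* without X or DR (up to 0.256) and *Rpl17* without each mouse but DS (up to 0.157). No gene was called among 18 immediate early genes (median -0.18), 12 cytokine and NF-kB feedback genes (-0.07), 17 cell cycle genes (-0.47), 24 proteasome genes (-0.25) and 10 class II antigen presentation genes (-0.01). The same was true of 19 platelet (median -0.49), 16 B cell (-0.08), 10 plasma cell (0.62), 14 monocyte (0.18) and 9 neutrophil precursor markers (0.23), and of 5 sex-linked genes (0.10). Of other tissues, 5 skeletal muscle markers in the table (median -0.51) and 6 neuronal and glial markers (-1.24) held no call, and *Ckm*, the muscle creatine kinase gene, was at most 0.478 CPM in the 7 mice.

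The same pair of sites could be compared in 3xTg-AD mice of 6 months, which share no mouse with the 7 above and had the same session schedule at each site. In tDCS mice, 8 hippocampal against 6 prefrontal, 85 of 15598 genes (0.545%) were called, and in sham mice, 5 against 4, 35 of 15584 (0.225%). These counts were less stable than that of the C57BL/6 mice, ranging from 17 (without mouse tdcs7) to 137 (without AL) and from 2 (without FC) to 437 (without FB) when 1 mouse was left out. Of the 448 C57BL/6 DEGs tested in 3xTg-AD tDCS mice, 424 had a log2 fold change of the same sign, where 57.4% of all genes tested there were negative. Called in both were 37 genes, all in the same direction, which are 8.24% of the C57BL/6 DEGs and 43.5% of the 3xTg-AD DEGs. They include *Lor*, at 0.0362, 2.21 and 19.7 CPM (lowest, median and highest) in the 8 hippocampal mice and without a read in the 6 prefrontal mice (edgeR adjusted p = 0.0205). *Krt1*, *Flg*, *Lgals7*, *Krtdap* and *Fam25c* and the sebaceous genes *Scd3*, *Elovl3*, *Cidea* and *Awat2* were also called lower in both, *Elovl3* losing its call in C57BL/6 mice without V or X (edgeR adjusted p = 0.0534 and 0.0624). *Alyref*, an mRNA export factor gene, was lower in both, with log2 fold changes of -1.67 and -1.53.

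Among the 427 lower C57BL/6 DEGs tested, the median log2 fold change was -3.17 in 3xTg-AD tDCS mice and -0.57 in 3xTg-AD sham mice, against -0.14 and -0.12 over all genes. In sham mice 291 of 448 had the same sign, where 55.8% of all genes tested there were negative, and none was called. *Lor* had a log2 fold change of -9.87 in sham mice (edgeR adjusted p = 0.0646). The oral keratin gene *Krt13* and the secretory gene *Gp2*, without a read in the prefrontal C57BL/6 mice, had log2 fold changes of -0.70 and 0.83 in sham 3xTg-AD mice (edgeR adjusted p = 0.807 and 0.797). The genes *mt-Ti* and *Hba-a1* did not pass the test in 3xTg-AD mice. None of the 15 mitochondrial tRNA genes was called in either 3xTg-AD comparison, and their medians were -1.20 with tDCS and -1.01 in sham mice. The mitochondrial mRNAs had medians of -0.32 and 0.19 and the rRNAs of 0.03 and 0.66, and none was called. *mt-Ti* had log2 fold changes of -1.77 in tDCS and -1.91 in sham 3xTg-AD mice (edgeR adjusted p = 0.110 and 0.134). *Hba-a1* was at 2.09 and 2.71 (edgeR adjusted p = 0.121 and 0.0765), against 2.29 in the C57BL/6 mice. In 3xTg-AD tDCS mice its levels overlapped between sites, from 6343 to 149876 CPM (hippocampal) and from 85590 to 496959 CPM (prefrontal). The hippocampal mice AM and AN, at 149876 and 115187 CPM, stood apart from the next highest, M, at 26518.5 CPM. In 3xTg-AD sham mice the sites did not overlap, with 11282 to 86538 CPM (hippocampal) and 112167 to 237099 CPM (prefrontal). *Ccl5* had log2 fold changes of 0.30 and 0.95 in tDCS and sham 3xTg-AD mice (edgeR adjusted p = 0.656 and 0.0866). Across 15577 genes the log2 fold changes of C57BL/6 and 3xTg-AD tDCS mice had a Pearson r of 0.488, and across 15564 genes those of C57BL/6 tDCS and 3xTg-AD sham mice had an r of 0.227, both over genes, which are not independent replicates.

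**Figure D5:**
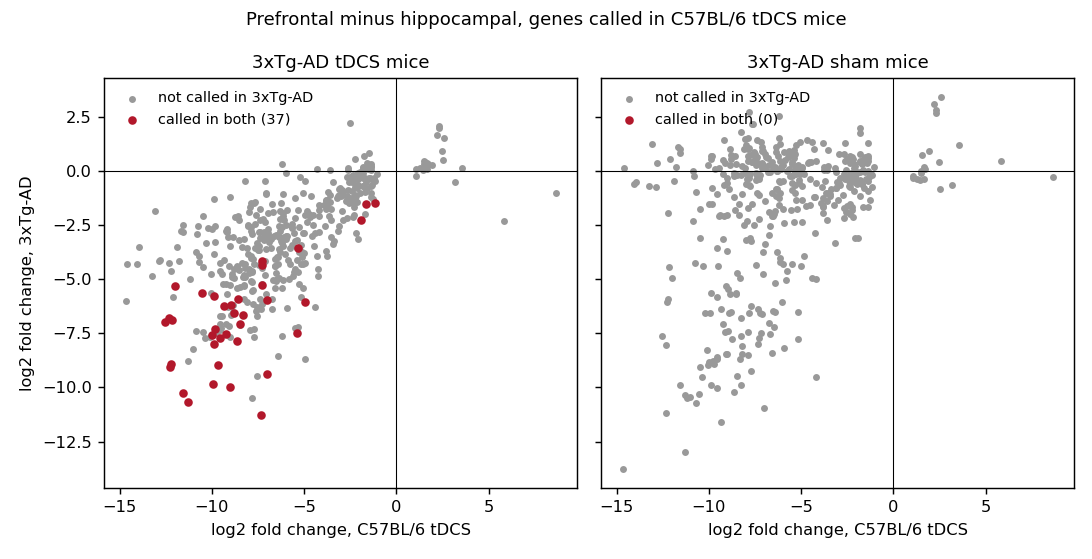
Log2 fold changes (prefrontal minus hippocampal) of the C57BL/6 tDCS DEGs on the horizontal axis against those of the same genes in 3xTg-AD tDCS mice (left) and 3xTg-AD sham mice (right). With tDCS most points lie at the lower left and 37 are called in both, while in sham mice many points lie near zero and none is called.

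Whether the site difference itself differed between strains was tested as the interaction of site and strain in the tDCS mice. With edgeR, 0 of 15612 genes (0%) were called, and 1407 had an unadjusted p under 0.05. The likelihood ratio test of DESeq2 called 16 and limma voom 2. Among the C57BL/6 DEGs the smallest interaction p was that of *Adtrp*, with a log2 fold change of -10.24 in C57BL/6 and -2.64 in 3xTg-AD mice (edgeR adjusted p of the interaction = 0.498). *Serping1*, which encodes the complement C1 inhibitor, followed with -6.19 and 0.35 (the same adjusted p), and its C57BL/6 call was lost without X (edgeR adjusted p = 0.0947). No difference between the strains passed the threshold, which does not show that the site difference was the same in both.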

How the data were processed

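Whole blood RNA of 42 mice was sequenced with a 3′ mRNA kit (QuantSeq) after globin depletion, 7 mice entering the comparison. The authors deposited 1 table of read counts per gene, whole numbers that were not normalised. The submitters' processing notes name cutadapt 1.14, STAR 2.6 and mm10. The counting tool's strand setting and the removal of duplicates are not given in the sources used here. Groups followed the labels for strain, age, stimulation and site. Of 15613 gene identifiers, 15607 were found in GENCODE vM21 (GRCm38) for symbols and coordinates, and 6 were not.

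Genes with at least 1 read over the mice of a fit were kept. Counts were normalised by TMM and tested in edgeR 4.0.16 by quasi-likelihood (R 4.3.3, limma 3.58.1), with site as the only term (site, strain and their interaction for the test between strains) and Benjamini-Hochberg adjusted p under 0.05. RNA integrity, a covariate of the study's own model, was not used here. Single values were compared with exact two-sided permutation tests (scipy 1.17.1). A fold of a gene without a prefrontal read is a bound against 3 reads in the shallowest prefrontal library, and with 1 to 3 reads an exact 95% interval of the ratio is given, which covers counting error only. The sources used here name no molecular identifiers, so reads may not be independent molecules. Levels of different genes are not compared per length, since 3′ counting gives about 1 read per transcript.

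The members and the 27 gene lists and 16 symbol families were chosen with earlier results of these data known. Named genes were the 12 of smallest p and the 5 of largest log2 fold change (mean of at least 10 CPM in the higher group) in each direction, 10 with the same sign in 3 site comparisons, 5 of smallest interaction p and up to 4 per list. Predicted genes were passed over, and genes chosen after their values were seen are marked. Counts were simulated for the main comparison with 15591 genes, and 200 changed genes were drawn from those with a mean of at least 1 CPM. Of these 200, 188 were called when changed by 3 on the log2 scale, with 13 false calls, and 3 when changed by 1, with none. Recovery of genes below 1 CPM was not simulated. Alternatives were RLE size factors, DESeq2 1.42.0, limma voom, filterByExpr, a mean of at least 1 CPM, wider fits, haemoglobin as a covariate or left out, and leaving out mice.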

Additional observations from a re-analysis of the deposited data

Results flagged for a closer look

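In 16 of 142 genes and read shares checked over the 4 prefrontal mice, 1 mouse lay far from the other 3, where chance gives about 1 in 20 for normally spread values, a rate that need not hold for levels of a few reads. Mouse DU stood apart for *Cd79a* (2.25 CPM), *Igha* (375 CPM), *Tnfrsf17* (3.24 CPM), *Ckm* (0.478 CPM), *Muc20* (0.405 CPM), *Scd3* (0.626 CPM), *Col1a1* (0.184 CPM) and *Awat2* (0.552 CPM), which include antibody and plasma cell genes and low levels of sebaceous and collagen genes. Mouse DR stood apart for *Ighg2b* (21.4 CPM), *Hspa1b* (0.891 CPM), *Mcm2* (13.4 CPM) and *Awat1* (0.145 CPM). For mouse DS these were *H2-DMb1* (37.3 CPM) and *Krt6b* (0.209 CPM), and for mouse DT *Aldh3a1* (0.102 CPM) and *mt-Tf* (0.981 CPM). The cause was not tested, and the hippocampal group of 3 mice was too small for the same check.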

How the results depend on the processing

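Of the 449 genes called, 436 were shared with the 438 called with RLE size factors, 402 with the 720 of DESeq2 and 342 with the 384 of limma voom. DESeq2 also moved the share of higher genes among the calls from 4.68% (21 of 449) to 14.6% (105 of 720). The count was 285 with filterByExpr and 281 with a mean of at least 1 CPM, both of which test fewer genes, and 169 in a fit of all 42 mice. With the share of haemoglobin reads as a covariate it was 535. Leaving out 1 mouse gave 273 (without X) to 616 calls (without U), and leaving out X and DT together, added after the data were seen, gave 201. The cause of these shifts was not tested. Of the 77 called genes named in the text, 23 lost the call without mouse X, 35 in the fit of all 42 mice and 26 without DS and DU, and none changed sign under the alternatives run.

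In 3xTg-AD tDCS mice, DESeq2 called 737 genes in place of 85, and leaving out 1 mouse gave 17 (tdcs7) to 137 (AL), with 30 without N, 50 without Q, 37 without Z, 52 without FE and 27 without FF. In 3xTg-AD sham mice, 35 became 794 with DESeq2, 262 with limma voom, 172 with filterByExpr and 2 (without FC) to 437 (without FB) with 1 mouse left out, the other 7 mice giving 3 (O, S and FD), 4 (P and FA), 7 (R) and 378 (AQ). The interaction had 16 calls with DESeq2, which gave an adjusted p to 1386 of 15612 genes, 2 with limma voom and 0 to 1 with 1 mouse left out (1 without Z or DU). Signs reversed in 2 uncalled genes. The log2 fold change of *Ckm* ran from -2.74 (without DU) to 0.38 (without V) with 1 mouse left out and was 0.02 without X and DT, and that of *mt-Tn* ran from -1.67 (without U) to 0.24 (without V). No paired analysis was possible because each mouse had the electrode at 1 site only and the labels name no litter or pair. With 4 against 3 mice, changes of 1 on the log2 scale were mostly out of reach, as the simulated counts showed.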

Other observations

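The split of the prefrontal mice at *Mmrn1* also appeared in other mice. In the 3 C57BL/6 sham mice of 3 months, it was at 0, 210.3 and 0 CPM in mice A2, I and AS. The 6 C57BL/6 sham mice of 6 months had 39.4 to 165 CPM, and the 3xTg-AD mice all had reads of the gene. Among the higher DEGs, 3 predicted genes, chosen after their values were seen, separated the same mice in the other direction. *Gm28693* was at 0.163, 2.92, 0.193 and 3.13 CPM in mice DT, DS, DR and DU and had no read in the hippocampal tDCS mice. *Gm37010* was at 1.19, 6.64, 0.626 and 4.45 CPM against 0.208, 0.623 and 0.195 CPM in mice U, V and X, and *5830444F18Rik* at 1.39, 6.22, 0.723 and 5.04 CPM against 0.0695, 0.311 and 0.423 CPM. In all 3, mice DS and DU were several times above DT and DR. With 1 mouse left out, *Gm28693*, *Gm37010* and *5830444F18Rik* lost their calls without 4, 5 and 4 of the 7 mice (edgeR adjusted p up to 0.126, 0.136 and 0.127). The relation of these genes to the low *Mmrn1* level of DS and DU was not tested.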
